A study of Mus musculus with 58 samples.

Results

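The genes described here are fetal liver and liver cancer markers: Afp, Gpc3, Cd24a, Sox4, Robo1, Golm1, Igf2bp3, Lin28b, Trim71 and Scd2. These 10 genes were taken by name, with earlier results of these data known. Each was read from the brightest array cluster that carries its symbol alone. For Scd2 the only cluster carried a second symbol, so 9 of the 10 genes were measured, out of 22180 genes with a single-symbol cluster.

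The arrays came from the livers of adult mice that had received adeno-associated virus (AAV), a gene therapy vector, as newborns, in a study asking whether vector insertion contributed to hepatocellular carcinoma. Every array shares that treatment and a mixed FVB/NJ, C57BL/6 and 129/Sv background, so normal liver here is vector-treated liver and no untreated liver was part of the comparison. There were 29 normal livers and 29 tumors from 39 animals by their titles, and 18 animals gave one of each. The labels name females for 9 normal livers and 11 tumors, males for 20 and 17, and no sex for 1 tumor. Dose and age are not given for single arrays, and the only title with a word that could name a vector or transgene is that of normal liver 4, which carries GFP after a +/- mark. A +/- or -/- mark stands on 19 arrays, and apart from that GFP no title says what it refers to: 5 normal livers and 5 tumors are marked +/-, and 4 normal livers and 5 tumors -/-. Levels are the deposited log2 values, which ran from 2.91 to 14.08 with array medians of 6.72 to 7.15.

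Oncofetal genes are active in the fetal liver, are shut down or strongly reduced after birth, and can be expressed again in liver cancer. Afp encodes alpha-fetoprotein, the main serum protein of the fetus and a serum marker of hepatocellular carcinoma. Gpc3 encodes a cell surface heparan sulfate proteoglycan, Cd24a a small glycosylated surface protein of progenitor cells, Robo1 a receptor for Slit guidance proteins, and Golm1 a Golgi membrane protein also known as GP73. Sox4 is a transcription factor, and Igf2bp3 binds mRNAs. Lin28b blocks the maturation of let-7 microRNAs, and let-7 in turn represses Lin28b, Trim71 and Igf2bp3 mRNAs in other systems.

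RefSeq promoters on GRCm38.p6 were found for 8 of the 9 measured genes. Those of 4 are shown because their genes give the contrasts that follow: Afp varied most between tumors, Sox4 and Robo1 separated most tumors from normal liver, and Gpc3 was high in a pair of tumors. Each run is the 250 bases before the annotated start, 5′ to 3′ on the gene's strand, with matches in capitals.
Afp, chr5:90490464-90490713, plus strand: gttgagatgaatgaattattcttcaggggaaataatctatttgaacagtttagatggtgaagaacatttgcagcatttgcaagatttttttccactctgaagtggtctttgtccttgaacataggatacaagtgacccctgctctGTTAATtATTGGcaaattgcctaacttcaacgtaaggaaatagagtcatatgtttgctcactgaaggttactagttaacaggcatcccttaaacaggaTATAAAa
Sox4, chr13:28953700-28953949, minus strand: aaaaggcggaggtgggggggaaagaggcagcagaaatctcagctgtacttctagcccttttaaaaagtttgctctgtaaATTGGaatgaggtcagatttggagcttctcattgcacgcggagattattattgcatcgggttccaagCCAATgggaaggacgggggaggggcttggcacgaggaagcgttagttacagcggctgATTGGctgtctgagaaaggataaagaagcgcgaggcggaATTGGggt
Robo1, chr16:72662899-72663148, plus strand: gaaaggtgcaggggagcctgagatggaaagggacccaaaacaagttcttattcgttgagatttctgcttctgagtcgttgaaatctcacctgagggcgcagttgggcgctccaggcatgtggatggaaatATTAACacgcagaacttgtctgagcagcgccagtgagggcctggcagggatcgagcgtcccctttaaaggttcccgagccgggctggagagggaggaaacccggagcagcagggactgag
Gpc3, chrX:52613975-52614224, minus strand: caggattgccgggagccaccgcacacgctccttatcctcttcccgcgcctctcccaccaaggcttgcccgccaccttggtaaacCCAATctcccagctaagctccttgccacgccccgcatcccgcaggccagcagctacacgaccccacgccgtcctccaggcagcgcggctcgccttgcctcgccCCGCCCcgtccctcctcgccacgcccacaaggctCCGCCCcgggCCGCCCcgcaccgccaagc
The letters searched on both strands were the TATA box core TATAAA, the partial HNF1 site GTTAAT, the GC box GGGCGG, the CCAAT box with those letters, and the E box CACGTG. The Afp window held 1 TATA box core near its start-site end, and 1 partial HNF1 site next to 1 CCAAT box on the opposite strand, and its GC content was 36.0%. The TATA box core was found in 12.4% and the partial HNF1 site in 6.43% of 32851 windows of that length. Gpc3's window had 3 GC boxes, a motif in 32.7% of windows, and 1 CCAAT box, with a GC content of 71.6% against a median of 52.4% over all windows. Sox4's had 4 CCAAT boxes, a motif present in 33.8% of windows, and Robo1's a single partial HNF1 site. The E box, present in 6.02% of windows, was in none of these 4. These are matches of letters only.

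The microRNA end of the Lin28b circuit is shown by the mature let-7 strands whose precursor genes passed the test reported further on, with let-7d-5p as the one that begins with another base. Capitals mark the seed, bases 2 to 8.
let-7a-5p: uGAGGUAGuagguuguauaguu
let-7c-5p: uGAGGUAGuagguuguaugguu
let-7d-5p: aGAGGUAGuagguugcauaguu
All 8 distinct mature let-7 5p strands in the RefSeq table had this seed.

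Before the markers were compared, each array was placed on an axis between the mean normal liver (-1) and the mean tumor (+1) over the other 22171 genes. On this axis 6 arrays lay on the side opposite to their label. Tumors 1, 20 and 24 lay at -1.02, -1.04 and -0.90, and the lowest of the other tumors at 0.11. Normal livers 16, 26 and 27 lay at 0.74, 0.10 and 1.14, and the highest of the other normal livers at -0.48. All 6 are kept under their labels unless stated, and results are also given without them. Because they were picked by their place between the tissues, leaving them out widens differences between the tissues by construction. Tumor 9 stood apart in another way: its summed linear signal of 9 hepatocyte markers was 2919, against 43334 or more elsewhere, and its summed B and plasma cell (32464) and T and NK cell (23286) markers were the highest of all arrays. In 7 arrays Xist and Y-linked genes went against the labelled sex.

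Tumors had more Sox4, Cd24a, Afp, Robo1, Golm1 and Igf2bp3 RNA than normal liver. Trim71 was slightly lower, and Gpc3 and Lin28b did not pass the test. By limma with the animal as a random block and Benjamini-Hochberg adjustment over all 22180 genes, 7 of the 9 markers passed an adjusted p of 0.05, 6 higher and 1 lower. Of all genes, 32.1% passed in either direction, 17.9% higher and 14.3% lower, so a call alone is common here. A rise of at least 1 on the log2 scale together with a call was found in 1.03% of genes, and Afp, Cd24a, Sox4 and Robo1 had one. Because the markers were chosen with earlier results of these data known, shares of all genes are given as a description. They are no test of the markers as a set. In tissue taken whole, fewer cells of a type and less RNA per cell cannot be told apart.

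**Figure D1:**
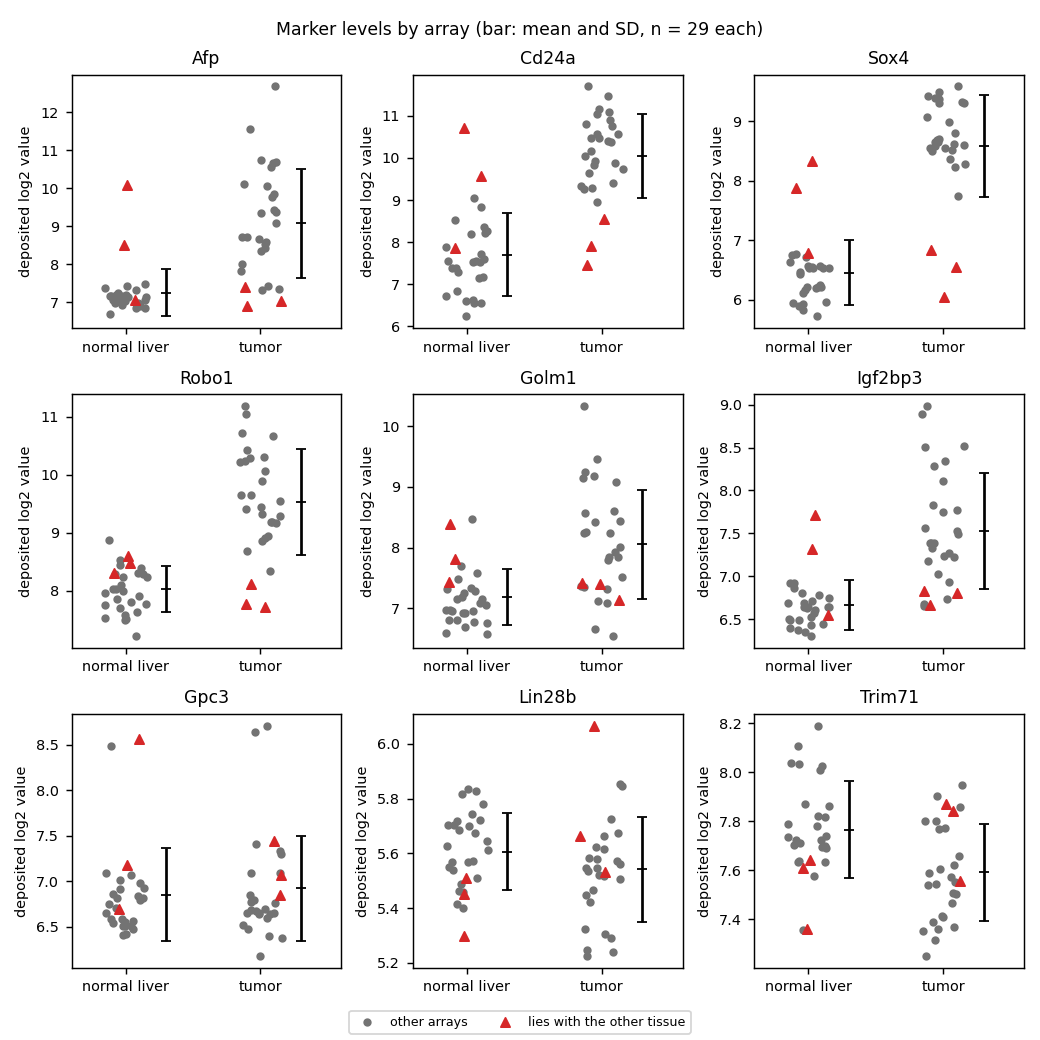
Deposited log2 values of the 9 measured markers in 29 normal livers and 29 tumors, 1 point an array, with the mean and SD beside each group; red triangles are the 6 arrays that lie with the other tissue. The 26 other tumors sit at or above 7.75 for Sox4, above every normal liver except normal livers 16 and 27, while Gpc3 reaches 8.64 and 8.71 in only 2 tumors.

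Sox4, which maintains progenitor states in several tissues, ran from 5.72 through a median of 6.47 to 8.33 in normal liver and from 6.04 through 8.65 to 9.59 in tumors. The groups overlapped only through arrays already named: tumors 1, 20 and 24 stood at 6.54, 6.04 and 6.83, and normal livers 16 and 27 at 8.33 and 7.88. In 23 of 29 tumors Sox4 was above the highest normal liver. Only 1.59% of genes had at least 15 tumors above all normal livers. The change was 2.12 (log2, SE 0.18), a 4.34-fold rise, with an adjusted p of 1.01e-13 by limma. A second, dimmer Sox4 cluster moved much less, from 5.28 ± 0.17 to 5.48 ± 0.22 (SD, n = 29 each), so the size of the rise rests on the brighter one.

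Cd24a rose by 2.34 (SE 0.25), or 5.07-fold, with an adjusted p of 4.8e-11 by limma, the largest change of the 9 by brightest cluster. With all clusters of a symbol averaged, the rises were 1.75 for Cd24a and 1.16 for Sox4, both still called, against 1.84 for Afp. Its values were 6.23, 7.54 and 10.70 (lowest, median, highest) in normal liver and 7.47, 10.17 and 11.71 in tumors. The normal range was wide: normal livers 16 and 27 reached 10.70 and 9.57 and normal liver 19 reached 9.05. For that reason 8 tumors were above every normal liver, but 25 of 29 were above all 26 normal livers that lie with their own tissue. Its dimmer cluster moved in the same direction, from 5.97 ± 0.47 to 7.12 ± 0.83 (SD, n = 29 each). Cd24a is also made by B cells, neutrophils and bile duct cells, and the sums of their markers were high in some arrays with much Cd24a and low in others. The highest Cd24a levels were in tumors 5 (11.71) and 11 (11.48). Their B and plasma cell sums were 1038 and 1268, against a median of 2091 over the arrays other than tumor 9. Their bile duct sums (2200 and 1678, against a median of 1619) and neutrophil sums (4447 and 5900, against 4025) were above the medians. Tumor 9, with the highest B cell sum, had 11.17. Normal liver 16 had the highest bile duct sum (6342, against a median of 1619 over the same arrays), and normal liver 19 the highest neutrophil sum (24310, against 4025). Their part in Cd24a was not tested.

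Robo1 ran from 7.22 through 8.03 to 8.88 in normal liver and from 7.73 through 9.44 to 11.19 in tumors. As for Sox4, 23 tumors were above every normal liver, but here normal livers 16, 26 and 27, at 8.48, 8.31 and 8.60, lay inside the range of the other normal livers, in its upper part. The rise was 1.49 (SE 0.17), or 2.81-fold, with an adjusted p of 7.38e-10 by limma. Tumor 22 had the highest level, 11.19, followed by tumor 18 with 11.05.

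Afp was near the same low level in nearly all normal livers and spread over a wide range in tumors. Normal livers had 6.70, 7.10 and 10.09 (lowest, median, highest), and all but 2 were at or below 7.47. The exceptions, normal livers 27 (10.09) and 16 (8.51), both lie with the tumors. Tumors had 6.91, 8.73 and 12.69, the highest in tumor 16, followed by 11.56 in tumor 15. The rise was 1.84 (SE 0.27), or 3.57-fold, with an adjusted p of 2.07e-07 by limma. Only 7 tumors exceeded the highest normal liver, while 23 exceeded the 26 normal livers that lie with their own tissue. Among arrays that lie with their own tissue, the SD of Afp was 7.38 times as large in tumors (1.34, n = 26) as in normal liver (0.18, n = 26). For Cd24a that ratio was 0.98. Over all 29 arrays of each tissue, normal livers 16 and 27 included, the ratio for Afp was 2.29 (SD 1.44 against 0.63), close to 2.31 for both Robo1 and Igf2bp3.

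Golm1 had 6.57, 7.08 and 8.46 in normal liver and 6.54, 7.93 and 10.34 in tumors. The ranges overlapped for most arrays: 8 tumors were above every normal liver and tumor 8 was below every one. The rise was 0.88 (SE 0.18), or 1.84-fold (adjusted p = 7.42e-05 by limma). Tumor 15 had the highest level. Igf2bp3 had 6.30, 6.64 and 7.71 in normal liver and 6.66, 7.39 and 8.99 in tumors, highest in tumors 19 and 5. It rose by 0.86 (SE 0.13), or 1.82-fold (adjusted p = 2.66e-07 by limma), and 10 tumors were above every normal liver.

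Gpc3, used as a tissue marker of human hepatocellular carcinoma, did not pass the test. Its values were 6.41, 6.75 and 8.56 in normal liver and 6.18, 6.77 and 8.71 in tumors. The difference was 0.07 (SE 0.13, 95% interval -0.19 to 0.33), with an adjusted p of 0.718 by limma. High levels stood out in 4 arrays: tumors 15 (8.71) and 16 (8.64) and normal livers 16 (8.56) and 19 (8.49). Tumor 16 and normal liver 16 are from one animal. Every other array was at or below 7.45.

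Lin28b was dim, at the 15.1 percentile of all genes by mean level. It had 5.30, 5.61 and 5.84 in normal liver and 5.22, 5.55 and 6.07 in tumors, the highest in tumor 20. The difference was -0.07 (SE 0.04, adjusted p = 0.23 by limma). Without the 6 arrays that lie with the other tissue it was -0.12 (adjusted p = 0.0147), and with arrays weighted by quality -0.11 (adjusted p = 0.0148), both of which pass as lower. On centred arrays it was -0.01 (adjusted p = 0.812) and after quantile normalization -0.03 (adjusted p = 0.574). Trim71, a ubiquitin ligase of stem cells and a let-7 target, had 7.36, 7.72 and 8.19 in normal liver and 7.25, 7.56 and 7.95 in tumors. It fell by 0.18 (SE 0.05, adjusted p = 0.0055 by limma), with no tumor above the normal range and 3 below it. This call was lost in the 18 pairs alone (adjusted p = 0.0996) and in the 11 normal livers and 11 tumors without a partner (adjusted p = 0.1).

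Without the 6 arrays, the 6 higher markers kept their calls. By the same limma fit the rises were 2.78 for Cd24a, 2.50 for Sox4, 2.18 for Afp, 1.74 for Robo1, 1.05 for Golm1 and 1.01 for Igf2bp3.

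Tumor by tumor, the 6 higher markers came in differing combinations. Each was counted as high where it exceeded all 26 normal livers that lie with their own tissue. These 6 markers were taken because they were called higher in the same tumors. The 26 normal livers and 26 tumors were picked by their place between the tissues. Both choices raise such counts by construction, and the share over all genes was not counted for these sets. Of the 26 tumors that lie with tumors, 8 had all 6 high, 10 had 5, 6 had 4 and 2 had 3. Those with 3 were tumors 7 and 9. Tumors 1 and 20 had none high and tumor 24 had 1, while normal livers 16 and 27 had 4 each and normal liver 26 had 1. Sox4 was high in all 26 of these tumors, Cd24a in 25, Afp, Robo1 and Igf2bp3 in 23 each and Golm1 in 8.

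**Figure D2:**
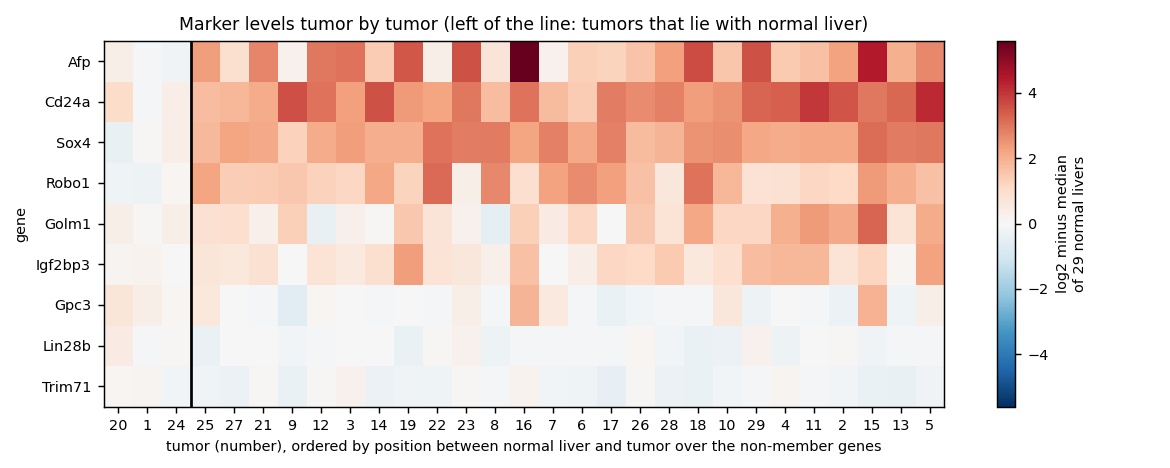
Level of each marker (rows) in each of the 29 tumors (columns), as the log2 difference from the median of the 29 normal livers; columns are ordered by position between normal liver and tumor, and the line divides tumors 20, 1 and 24 from the rest. Cd24a and Sox4 are raised across nearly all columns right of the line, Afp varies from tumor to tumor, and Gpc3 stands out in tumors 15 and 16.

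Tumors 22 and 26 carry the same animal number in their titles and were treated as from 1 animal, although only tumor 22 has a -/- mark. Tumor 22 had more Robo1 (11.19 against 9.66) and Sox4 (9.49 against 8.23), and tumor 26 more Afp (8.71 against 7.43) and Golm1 (8.61 against 7.79). With 1 array for each tumor, these differences have no replicate check.

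Each of the 18 pairs set a tumor against the normal liver whose title gives the same animal. In the pair of tumor 19 and normal liver 17, only the normal liver has a -/- mark. The differences in that pair were 3.88 for Afp and 2.35 for Igf2bp3, the latter the largest of all pairs. Afp, Sox4 and Robo1 were higher in the tumor in 17 pairs, Cd24a and Igf2bp3 in 16 and Golm1 in 15. At least 17 of 18 pairs were higher for 1.85% of all genes. With the animal as a fixed block, limma called 6 of the 9 markers, all higher, against 20.8% of all genes in either direction, 12.6% higher and 8.13% lower. Gpc3 was higher in 10 pairs, Lin28b in 6 and Trim71 in 5, and none of these 3 passed.

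The sizes within pairs varied by gene. Cd24a ranged from -0.49 to 4.82 with a median of 2.48, and its mean change was 2.37 (SE 0.34, adjusted p = 7.13e-05 by limma). Afp ranged from -0.15 to 4.48 with a median of 1.53. Sox4's lowest difference was -0.17 and its median 2.21, and Robo1's were -0.77 and 1.62. The lowest Cd24a, Sox4, Robo1 and Golm1 differences all came from the animal of tumor 20 and normal liver 19, in which Gpc3 was also lower in the tumor by 1.04. Both arrays of that animal had high neutrophil sums, 22794 in the tumor and 24310 in the normal liver. In the pair of tumor 16 and normal liver 16, Afp was 4.18 higher in the tumor while Cd24a, Sox4, Golm1 and Gpc3 differed by -0.12, 0.37, 0.04 and 0.08. Without the 3 pairs that hold an array lying with the other tissue, 15 pairs were left and 8 of the 9 markers passed. Lin28b (-0.13, adjusted p = 0.0235 by limma) and Trim71 (-0.24, adjusted p = 0.0087) now passed as lower. Leaving out pairs by tissue position widens differences by construction. The share of all genes called was not counted for the 15 pairs, so this count has no background beside it.

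**Figure D3:**
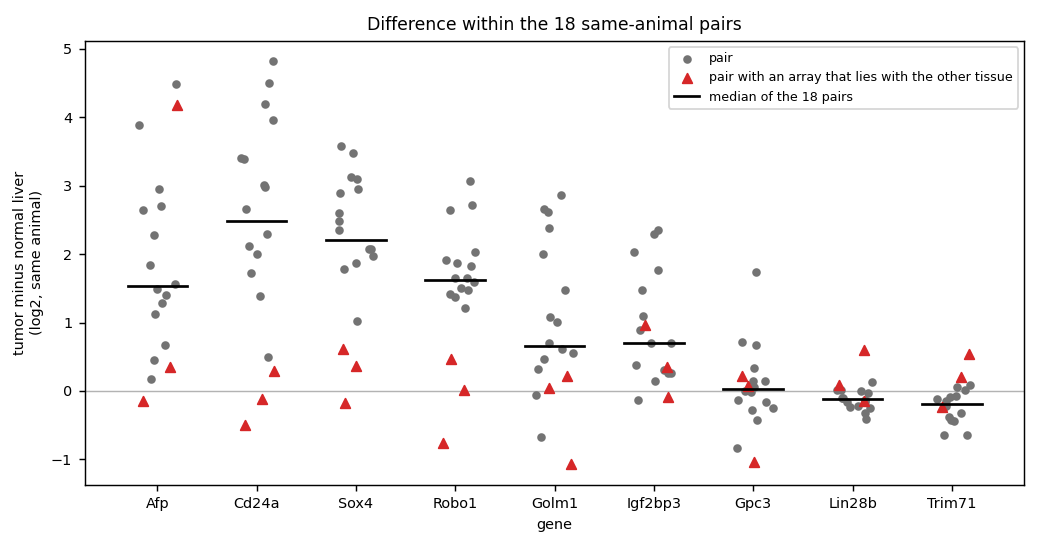
Tumor minus normal liver of the same animal by title (log2) for the 9 markers, 1 point a pair (18 pairs), with the median as a line. Red triangles are the 3 pairs that hold an array lying with the other tissue. Afp, Cd24a, Sox4 and Robo1 lie above 0 in 16 or 17 pairs, and Gpc3, Lin28b and Trim71 lie around 0 or below.

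No marker passed the test of a difference between the sexes in its change with tumor. A tissue by sex interaction in limma called 0 of 22180 genes, with 1004 at an unadjusted p under 0.05. At that unadjusted level 4 of the 9 markers had a larger rise in males: Cd24a (by 1.18), Sox4 (0.87), Golm1 (0.83) and Robo1 (0.79), each with an adjusted p of 0.949. Tumors 1, 20 and 24 are all labelled female. Without the 6 arrays that lie with the other tissue, the 4 differences were 0.36, 0.12, 0.58 and 0.26. The labelled sex went against Xist and Y-linked genes in 7 of the 57 arrays used. Without those 7 the differences were 1.36, 0.99, 0.80 and 0.78, each with an adjusted p of 0.909 by limma.

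Which markers were high in the same tumors was asked over 36 marker pairs, with the tumors of one animal averaged. The planned set was all 28 animals. Tumors 1, 20 and 24, which lie with normal liver over the other genes, formed a cluster of their own for Sox4. Relations were therefore also read over the 25 animals without them, a set added after the values were seen. Leaving them out narrows the range of Sox4, Cd24a and Robo1, which can by itself weaken r. Over the 25 animals, no marker pair passed an adjusted p of 0.05 in a permutation test (100000 resamples, two-sided, adjusted over 36). An unadjusted p under 0.05 was found for 8. Over all 28 animals 8 pairs passed, 6 positive and 2 negative, and none of the 8 passed over the 25.

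**Figure D4:**
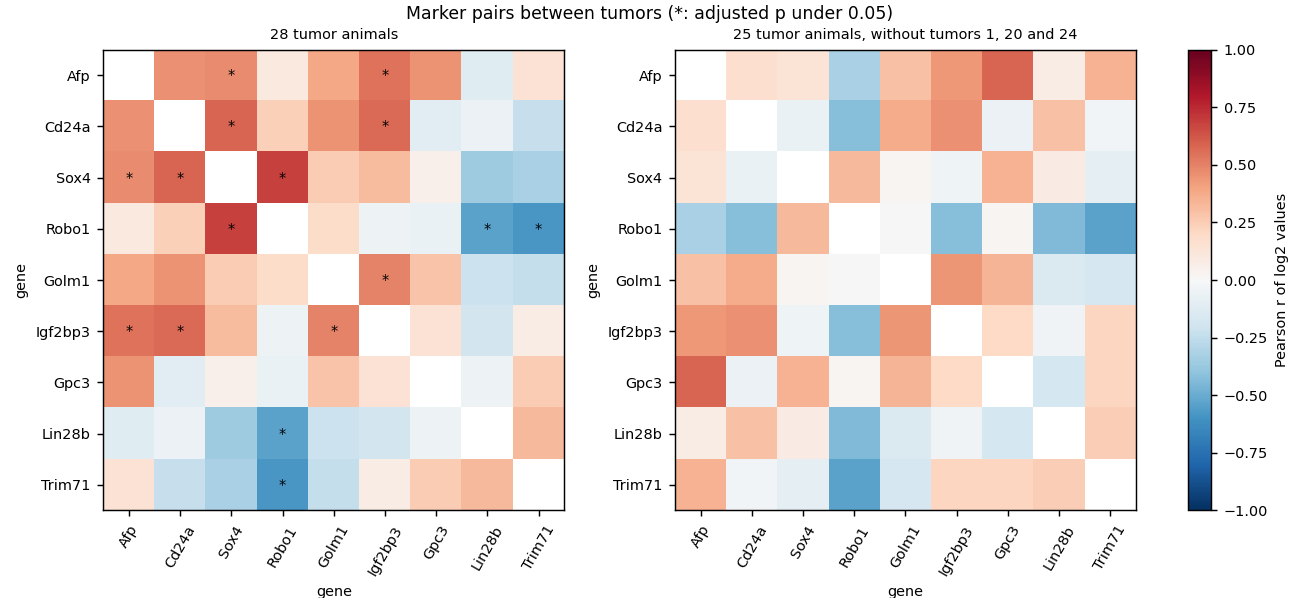
Pearson r between log2 levels of each marker pair over 28 tumor animals (left) and over 25 without tumors 1, 20 and 24 (right); red is positive, blue negative, and an asterisk marks an adjusted p under 0.05 over 36 pairs. The 8 marked pairs of the left panel carry no mark on the right.

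Sox4 and Robo1 had the strongest relation over 28 animals (r = 0.683, rho = 0.533, permutation adjusted p = 0.00216 for r), and r was 0.326 over 25 (rho = 0.344, permutation adjusted p = 0.294). Cd24a and Sox4 went from 0.583 over 28 animals to -0.06 over 25. The 3 tumors left out lie with normal liver and are low in all 3 genes. A part of these tumors in the relations cannot be told apart from the narrower range without them. Sox4 and Robo1 also passed over 28 animals by rho (permutation adjusted p = 0.0404) and in the differences within the 18 pairs. Cd24a and Sox4 passed in neither.

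Most of the 8 pairs with an unadjusted p under 0.05 over the 25 animals involved Igf2bp3 or Robo1. For Igf2bp3 the r was 0.459 with Cd24a (rho = 0.428, permutation p = 0.0216), 0.44 with Golm1 (rho = 0.418, permutation p = 0.0273) and 0.437 with Afp (rho = 0.405, permutation p = 0.0304), each with an adjusted p of 0.151. For Robo1 the r was -0.53 with Trim71 (rho = -0.52, permutation p = 0.00643, adjusted 0.116). It was -0.44 with Lin28b (rho = -0.39, permutation p = 0.0285), -0.43 with Cd24a (rho = -0.45, permutation p = 0.0335) and -0.43 with Igf2bp3 (rho = -0.41, permutation p = 0.0336), each with an adjusted p of 0.151. Without the 2 tumors farthest from the median of the first gene of each pair, r was 0.315 for Cd24a and Igf2bp3, 0.431 for Golm1 and Igf2bp3, 0.4 for Afp and Igf2bp3, -0.46 for Robo1 and Trim71, -0.22 for Robo1 and Lin28b, -0.40 for Cd24a and Robo1 and -0.51 for Robo1 and Igf2bp3. With each array centred on its median, 9 pairs passed over 28 animals, all positive. Robo1 then had an r of -0.43 with Trim71 (permutation adjusted p = 0.0776) and -0.42 with Lin28b (0.084), against -0.58 and -0.54 as deposited, where both passed. After quantile normalization the r with Trim71 was -0.54 and still passed (permutation adjusted p = 0.0325), and that with Lin28b was -0.34 (0.207). The relations over 25 animals were not recomputed on other scales.

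Afp and Gpc3, both described as under the control of Zhx2 in liver, had the highest r within the 25 (0.584, rho = 0.368, permutation p = 0.00221, adjusted 0.0796, for r). It fell to 0.103 without the 2 tumors of most extreme Afp, so it rests on tumors 15 and 16. In tumors 18, 29 and 23, Afp was also high (10.74, 10.69 and 10.67) with Gpc3 at most 7.45.

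**Figure D5:**
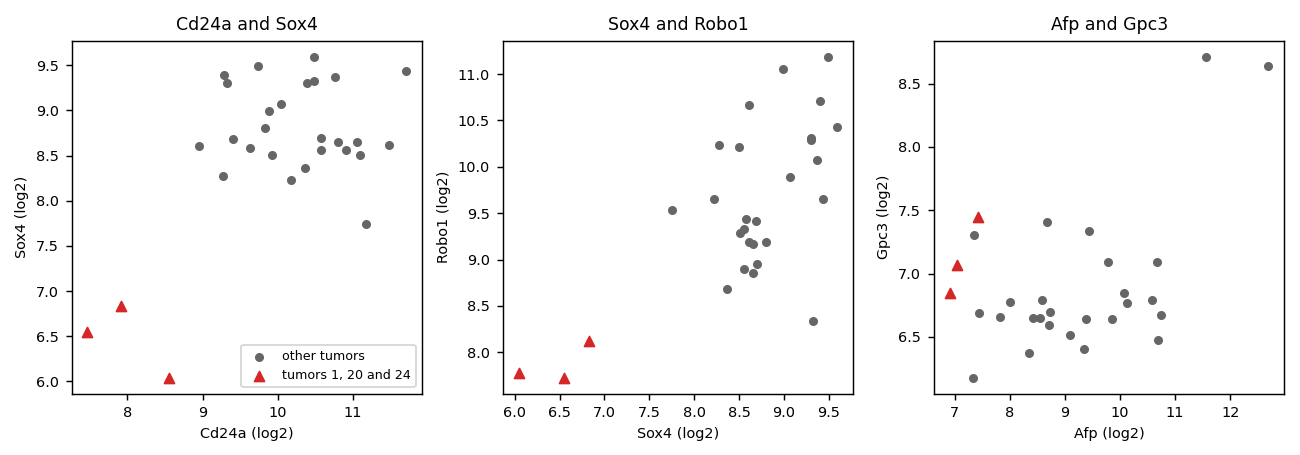
Levels of 3 marker pairs in the 29 tumors (log2), 1 point a tumor; red triangles are tumors 1, 20 and 24. In the first 2 panels these 3 tumors lie apart from a cloud with little slope for Cd24a and Sox4, and in the third 2 tumors hold the high corner of Afp and Gpc3.

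The genes most alike to each marker over the 28 tumor animals are given as a description. They were Rhoc (r = 0.929), Niban1 (0.906) and Pfkp (0.868) for Sox4, and Septin11 (0.844), Oxct1 (0.838) and Myh10 (0.832) for Robo1. For Cd24a they were Rap1gap2 (0.83), Mtbp (0.817) and Nop56 (0.815), and for Afp Tmem237 (0.784), Dst (0.777) and Prkab1 (0.774). Golm1 was most like Elapor1 (0.818), Cd44 (0.804) and Fgl2 (0.803), Igf2bp3 most like B4galnt2 (0.809), Wdr73 (0.799) and Smg8 (0.786), and Gpc3 most like Pdzrn3 (0.827), Olah (0.758) and Micall2 (0.738). Lin28b and Trim71, which varied little, were closest to Olfr601 (0.848) and Mybpc3 (0.896). The Sox4 values fell to 0.771, 0.695 and 0.623 over the 25 animals. For no marker was another marker among its 3 closest genes.

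Other oncofetal and liver cancer genes moved in both directions. Of 22 measured, 10 rose and 3 fell, against 17.9% of all genes higher and 14.3% lower. Their median change was 0.16, against -0.02 over all genes. Prom1, a progenitor surface marker, rose by 1.69 (adjusted p = 1.48e-08), Ect2, a regulator of cell division, by 1.38 (2.17e-09) and Spink1, a trypsin inhibitor, by 1.25 (5.06e-07), all by limma. Glul, the glutamine synthetase of pericentral hepatocytes, fell by 1.62 (adjusted p = 1.54e-09 by limma) and was higher in the tumor in 1 of 18 pairs. Peg3, an imprinted gene, fell by 0.92 and Hmga2 by 0.19. The Hmga2 call was lost in the 18 pairs (adjusted p = 0.163) and in the animals without a pair (0.0551). All 14 measured cell division genes rose, with a median of 0.82.

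Around Lin28 and let-7, 5 of 15 measured genes rose and 4 fell, against 17.9% of all genes higher and 14.3% lower. The 15 had a median of 0.00. Those of smallest adjusted p by limma were Ago2, the slicing Argonaute (0.71, adjusted p = 3.23e-08), Igf2bp3 and Drosha, which cuts primary microRNAs (0.32, adjusted p = 0.0005), among the higher, and Mycn (-0.18, adjusted p = 0.0031), Trim71 and Hmga2 among the lower. Lin28a differed by 0.02 (SE 0.05) and did not pass. Of 11 let-7 precursor genes 2 were lower, a share near the 14.3% of all genes. They were Mirlet7a-1 by -0.38 (adjusted p = 0.0099 by limma) and Mirlet7c-1 by -0.22 (adjusted p = 0.0276). Each is 1 precursor of a strand shown above. Neither passed in the 18 pairs (0.0837 and 0.118) or in the animals without a pair, and Mirlet7c-1 was also lost on centred arrays (0.0923). Mirlet7c-1 was dim, at 4.55 in normal liver and 4.32 in tumors. Mirlet7c-2, which gives the same let-7c-5p strand, differed by 0.03 and Mirlet7a-2 by 0.02, and both did not pass. A whole-transcript array does not measure the mature strands. The Mycn call was lost on centred arrays (adjusted p = 0.0533) and in the animals without a pair (0.163), and the Drosha call in the latter (0.228).

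Of 14 measured liver regulators of Afp transcription, none rose and 8 fell, with a median of -0.29, against 17.9% of all genes higher and 14.3% lower. The list mixes repressors of Afp with other regulators, so the count gives no direction for Afp. Foxa1, a pioneer factor of liver genes, fell by 1.02 (adjusted p = 6.74e-09 by limma), Nfib by 0.50 and Nfia by 0.47, each higher in the tumor in at most 2 of 18 pairs. In the animals without a pair the calls of Nfia (0.0747) and Nfib (0.0593) were lost. Zbtb20 and Zhx2, named here after their values were seen because both repress Afp after birth, differed: Zbtb20 fell by 0.39 (SE 0.08, adjusted p = 0.0002 by limma), and Zhx2 was at 9.48 ± 0.24 in normal liver and 9.55 ± 0.35 in tumors (SD, n = 29 each) with a change of 0.07 (SE 0.08) that did not pass. Of 6 measured genes described as under Zhx2 control, Afp and Lpl (1.42, adjusted p = 2.58e-06) rose, Elovl3 (-1.16) and Hsd3b5 (-1.01) fell, and Gpc3 and Mup20 did not pass. Elovl3 and Hsd3b5 differ strongly between the sexes in mouse liver and passed neither in the 18 pairs (0.403 and 0.152) nor, for Hsd3b5, in the animals without a pair (0.136).

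Relatives of the markers moved in both directions. In the albumin family, Afm (afamin) fell by 1.75 (adjusted p = 7.13e-07 by limma; 0.0812 in the animals without a pair) while Afp rose, and Alb differed by -0.25 without passing. Alb passed as lower without tumor 9 (-0.13, adjusted p = 0.000855). Among glypicans, Gpc2 rose by 0.63 (SE 0.07, adjusted p = 1.15e-10 by limma) and was higher in 18 of 18 pairs, and Gpc4 fell by 0.54 (0.115 in the animals without a pair). Gpc5 fell by 0.13, a call lost on centred (0.17) and quantile-normalized arrays (0.0553), in the 18 pairs (0.0539) and in the animals without a pair (0.543). Gpc1 (0.21) and Gpc6 (0.28) did not pass, although both passed without the 6 arrays, and Gpc6 also in the 18 pairs (adjusted p = 0.0273).

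Among the Slit ligands and Robo receptors and their partners, 3 of 10 rose and 4 fell, against 17.9% of all genes higher and 14.3% lower. Robo4, an endothelial receptor, rose by 0.50 (adjusted p = 1.65e-05 by limma) and Slit3 by 0.38, while Robo2 fell by 0.36, Robo3 by 0.13, Slit1 by 0.21 and Srgap3 by 0.54. The Slit3 and Robo2 calls were lost in the 18 pairs (0.0703 and 0.118), and the Robo3 call on centred (0.175) and quantile-normalized arrays (0.0694), without the arrays against their sex label (0.0719) and in the animals without a pair. In the latter the Slit3 call was lost too (0.419). Of the Sox relatives, Sox12, in the same group as Sox4, fell by 0.42 (adjusted p = 1.9e-07 by limma) and was lower in the tumor in all 18 pairs, Sox18 rose by 0.34 (lost in the animals without a pair, 0.599), and Sox11, Sox9 and Sox17 did not pass (-0.06, 0.30 and -0.06). Scd3 rose by 0.96 (adjusted p = 5.38e-06 by limma), and Scd1 (-0.30) and Scd4 (-0.09) did not pass. Golm2 rose by 0.44, a call lost in the animals without a pair (0.643).

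Some markers of the cell types a liver piece can hold also differed between the tissue labels, against 17.9% of all genes higher and 14.3% lower. Of the hepatocyte markers, 3 of 9 fell, and apart from tumor 9 their summed level was 43334 or more in every array. Bile duct markers fell in 5 of 9, but the median of their sum was higher in tumors (1844) than in normal liver (1539). Cdh1 and Sox9, the brightest of the 9 in tumors, weigh most in this linear sum. They differed by 0.49 and 0.30 without passing (adjusted p = 0.0882 and 0.129 by limma). The bile duct sum ran from 1050 to 6342 in normal liver, highest in normal liver 16, and from 868 to 3640 in tumors, lowest in tumor 9. No neutrophil (of 12) or B and plasma cell marker (of 8) passed, and 2 of 12 T and NK cell markers rose. In the 18 pairs, the neutrophil markers S100a9, Elane and Retnlg passed as lower (adjusted p = 0.0168, 0.0432 and 0.0195 by limma). Of the macrophage markers 3 of 11 rose and 5 fell, of the endothelial markers 4 of 12 rose and 2 fell, and of the stellate cell and fibroblast markers 4 of 12 rose and 3 fell. Of the red cell precursor markers, 1 of 3 measured rose. The summed levels overlapped between the tissues for every list, neutrophils for example from 1531 to 24310 in normal liver and from 1609 to 22794 in tumors. Their part in the marker changes was not tested. Without tumor 9, all 7 marker calls were kept.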

How the data were processed

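RNA from 29 normal livers and 29 liver tumors was hybridised to Affymetrix whole-transcript arrays. The authors deposited log2 expression values per transcript cluster, and the submitters' processing notes name Affymetrix Expression Console for this step, with no version or settings. Values were used as deposited, without further normalization. Of 41345 clusters, 23521 carried 1 symbol in the platform annotation, 1814 several and 16010 none; the brightest single-symbol cluster stood for each of 22180 genes. Scd2 shares its cluster with another symbol and is not reported, so 36 marker pairs were tested rather than the planned 45.

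Tissues were compared with limma 3.58.1 in R 4.3.3 (statmod 1.5.0), with a mean-variance trend, the animal as a random block (correlation 0.145) and Benjamini-Hochberg adjustment over all genes, at an adjusted p of 0.05. The 18 pairs, matched by the animal in the title, were fitted with the animal as a fixed block. As a check of the pairing, deviations from the group means correlated above 0.1 in 15 of the 18 pairs (median r 0.241, lowest -0.196). Normal liver 17, marked -/-, and tumor 19, without a mark, share an animal number and were kept as a pair. Scripts were tested on simulated data first. Arrays within a tissue carry separate animal labels except tumors 22 and 26, which share an animal number but not the -/- mark; normal livers 26 and 27 share a number with different marks and were kept as 2 animals. The number of arrays limits the precision. Array positions between the tissues used all genes except the markers.

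Genes were named by a rule: all markers, the 3 list genes of smallest adjusted p in each direction, family relatives of a marker, and the 3 genes most correlated with each marker. The markers and gene lists were chosen with earlier results of these data known; the let-7 list and the analyses without the 6 arrays were added after the values were seen. Alternatives covered scaling, normalization, cluster choice, dim genes, array weights, sex, pairing and arrays left out. Promoter and microRNA sequences are RefSeq's, on GRCm38.p6.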

Additional observations from a re-analysis of the deposited data

How the results depend on the processing

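Of the 9 markers, 7 passed between tumors and normal liver in the deposited values, and 6 to 8 did under each alternative tried, including the fit without a replicate block (7) and the 18 pairs with the animal as a replicate block (6). Leaving out each array in turn left the count at 7 and kept all calls, with changes of 1.71 to 1.93 for Afp, 2.08 to 2.21 for Sox4 and -0.19 to -0.16 for Trim71. Only genes brighter than the median gene gave 6, since Gpc3, Igf2bp3 and Lin28b were then not tested. Over all genes the calls were 3964 higher and 3166 lower (55.6% higher) as deposited, 73.1% higher on arrays centred on their medians and 49.5% after quantile normalization, and the median change moved from -0.02 to 0.03 and -0.01. The Gpc3 change in pairs turned to -0.0562 without pairs holding an array against its sex label (adjusted p = 0.784). The Lin28b difference by sex, -0.01 as deposited, turned to 0.0232 without the arrays against their sex label, 0.0573 on centred arrays and 0.0714 without the 6 arrays lying with the other tissue. The count of correlated marker pairs, 8 as deposited, was 4 with Spearman's rho, all among the 8, and 3 for the differences within 18 pairs, where of the 8 only Sox4 and Robo1 passed. It was 0 without tumors 1, 20 and 24, where Cd24a and Sox4 turned to -0.0637. Genes near 0 turned sign without passing: Lin28a to -0.0070 (quantile normalization) and -0.0136 (without the 6 arrays), Zhx2 to -0.0278 (quantile normalization) and -0.0161 (animals without a pair), Gpc6 to -0.0109 and Sox11 to 0.0306 (animals without a pair) and Sox17 to 0.0129 (pairs). The cause was not tested.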

Other observations

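Some titles carry +/- or -/-, followed in normal liver 4 alone by GFP, and these arrays entered no comparison by mark. Normal liver 27, the normal liver of highest Afp (10.09), carries a -/- mark. So do tumors 22 (Afp 7.43, Robo1 11.19) and 24 (Afp 6.91, Robo1 8.12). Tumor 15, with the highest Gpc3 (8.71), Sox4 (9.59) and Golm1 (10.34), is marked +/-, as is tumor 7, which had low Afp (7.36) and Igf2bp3 (6.67) beside Sox4 at 9.31.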
